A study of Arabidopsis thaliana with 40 samples.

Results

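The small-subunit ribosomal protein genes were the nuclear loci whose description in the count tables names a ribosomal protein S followed by a digit, without wording for a large-subunit protein, a 30S or organelle ribosome, a kinase, an elongation factor or a methyltransferase. The rule found 107 of 33592 genes and used no measured value. Of them 72 were placed in 26 families of the cytosolic 40S subunit, here called 40S genes. The family names do not always follow the tables' descriptions, which call the S2 genes S5 family, a wording that an organelle gene also has. The others were 19 genes for proteins of organelle ribosomes, 7 genes that the tables describe only by a domain, 3 genes for proteins related to a ribosomal protein and 6 pseudogenes. The reference places 3 of the 7 domain genes in the 40S subunit as S16, and they are described apart and not counted among the 40S genes. A low-count filter left 93 members for testing: 65 40S genes, all 19 organelle genes, 6 domain genes, all 3 related genes and no pseudogene. The 7 40S genes left out were AT1G33850, AT5G09490, AT5G09500, AT5G43640 and AT5G63070 of family S15, AT2G16360 of S25 and AT2G39590 of S15A, and 5 members had no read in any library. The wording rule misses families that the tables describe otherwise, such as S5, S10, S12 and S17.

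Whole seedlings of Arabidopsis thaliana were 9 days old and were sampled after 3 h in the dark or 3 h of submergence in the dark, and mRNA was sequenced both as total mRNA and as RNA from heavy polysomes (mRNAs carrying many ribosomes). Counts were analysed for 16 of the 40 samples: the wild type Col-0 and the K48M line, in which the kinase subunit SnRK1.1 (KIN10) with the K48M amino acid change is overexpressed in Col-0. Each of the 8 groups had 2 libraries, one of a set called ST_FR and one of a set called LTF_GG, and the design text calls the repeats independent biological ones. The labels give neither the promoter of the transgene nor the number of lines. Counts for the lines i4g1-2 and 4A-15 were not analysed here, and these lines appear only through the authors' deposited table.

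Levels are given as CPM, the counts of a gene scaled to a common library size with TMM factors, which sets a typical gene equal between libraries. Gene reads ran from 3.75 to 6.77 M per library. KIN10 stood at 25.9 to 36.8 CPM in the Col-0 libraries and at 232 to 1550 CPM in the K48M ones. The 10 hypoxia genes used to check the condition rose in each of the 4 submergence responses, with medians of 4.71 to 5.4 on the log2 scale. For the LTF_GG pair of K48M total RNA the sample titles and the column headers give opposite conditions. In that pair all 10 hypoxia genes were higher in the library whose header says submerged. The pair was left out of the tests, so that K48M total RNA has 1 library per condition, with values that include it given below. Tests on K48M total RNA thus compare single libraries and assume that they vary like the libraries of the other groups. Ribosomal RNA took 38.12% of the gene reads of the ST_FR Col-0 polysome dark library and 0.87% to 14.62% of the others.

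Ribosomal proteins of the small subunit join the 18S ribosomal RNA to form the particle that binds the initiation factors and scans the messenger RNA for its start codon. In plants nearly every such protein is encoded by several nuclear genes, and making ribosomes is one of the largest costs of a growing cell. Plant ribosomal protein promoters are known for the telo box and for site II elements, the latter bound by TCP factors. Translation of ribosomal protein mRNAs is known to depend on the kinase TOR, which promotes growth when energy is at hand, while SnRK1 restrains growth when energy is short.

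Promoters were read because the 40S genes moved together, and 5 are printed. AT3G45030 had the lowest p of all members in K48M polysome RNA, and RPS6A encodes the target of S6 kinase. AT2G19720 was called in both polysome responses and in Col-0 total RNA. AT4G00100 (RPS13A) fell in both polysome responses, and its window holds neither element. AT3G46040 (RPS15AD) had the highest submergence response of the 40S genes in both polysome comparisons. Each line gives the 200 bases before the annotated start from RefSeq's TAIR10.1 assembly, 5′ to 3′ on the gene's strand. Capitals mark the telo box AAACCCTA and the site II hexamers TGGGCC and TGGGCT, searched on both strands, where site II matches can overlap (the stretch TGGGCCCA holds both strands' matches).
AT3G45030 (S20), chr3:16472410-16472609, minus strand: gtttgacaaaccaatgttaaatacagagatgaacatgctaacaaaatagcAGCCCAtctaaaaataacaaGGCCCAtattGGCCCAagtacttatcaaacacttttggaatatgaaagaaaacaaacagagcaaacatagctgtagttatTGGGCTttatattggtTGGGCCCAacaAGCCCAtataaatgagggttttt
AT4G31700 (RPS6A), chr4:15347805-15348004, minus strand: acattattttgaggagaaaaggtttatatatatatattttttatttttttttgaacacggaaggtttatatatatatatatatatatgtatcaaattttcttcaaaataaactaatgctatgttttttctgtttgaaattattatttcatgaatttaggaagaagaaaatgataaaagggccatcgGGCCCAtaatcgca
AT2G19720 (S15A), chr2:8511396-8511595, minus strand: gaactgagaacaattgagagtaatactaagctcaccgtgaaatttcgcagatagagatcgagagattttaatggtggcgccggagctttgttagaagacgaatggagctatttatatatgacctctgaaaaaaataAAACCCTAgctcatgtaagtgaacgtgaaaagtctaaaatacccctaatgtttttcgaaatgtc
AT4G00100 (RPS13A), chr4:36716-36915, plus strand: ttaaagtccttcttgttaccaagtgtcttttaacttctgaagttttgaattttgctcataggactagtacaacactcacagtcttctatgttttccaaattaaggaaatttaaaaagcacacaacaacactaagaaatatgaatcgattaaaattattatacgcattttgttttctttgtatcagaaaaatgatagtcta
AT3G46040 (RPS15AD), chr3:16914325-16914524, plus strand: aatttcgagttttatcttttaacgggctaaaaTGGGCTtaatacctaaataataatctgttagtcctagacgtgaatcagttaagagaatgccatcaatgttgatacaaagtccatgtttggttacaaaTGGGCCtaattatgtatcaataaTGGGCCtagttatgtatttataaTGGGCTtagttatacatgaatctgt

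In windows of 300 bases, 250 before to 50 after the start, the telo box was found in 38 of 72 40S genes (52.8%), against 6.2% of 27443 protein-coding genes. Site II was found in 52 of 72 (72.2%) against 21.7%, and 44 of 72 (61.1%) held 2 or more matches against 13.7%. Both elements stood together in 30 genes (41.7%, against 2.2%), and 12 genes (16.7%) had neither, against 74.3% of all. Large-subunit genes had the telo box in 36.6% and site II in 66.9% of 172 windows. The 35 tested 40S genes with a telo box had a median log2 response of −0.61 in Col-0 and −0.71 in K48M polysome RNA, beside −0.60 and −0.79 for the 30 without. The 50 with site II stood at −0.58 and −0.71 and the 15 without at −0.74 and −0.91, so that genes without site II had the lower medians. The 29 with both elements stood at −0.55 and −0.69, and the 9 with neither at −0.53 and −0.91. These are descriptions, and no test was made of them.

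Under submergence the mRNAs of the 40S genes were lower on heavy polysomes in both genotypes, and less so in total RNA. Summed over the 72 40S genes, Col-0 polysome RNA held 27083 CPM in the dark and 19567 CPM submerged in the ST_FR set, and 14852 and 9342 CPM in the LTF_GG set. K48M polysome RNA went from 27922 to 17204 CPM and from 16288 to 9647 CPM. The submerged-to-dark ratio of the sum was thus 0.72 and 0.63 in Col-0 and 0.62 and 0.59 in K48M. Col-0 total RNA held 20799 and 20849 CPM in the ST_FR set, a ratio of 1.0, and 12441 and 9575 CPM in the LTF_GG set, a ratio of 0.77. K48M total RNA went from 20825 to 18190 CPM in ST_FR, a ratio of 0.87. The conflicting LTF_GG pair held 24920 CPM in the library with a dark header and 18458 CPM in the one with a submerged header.

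**Figure D1:**
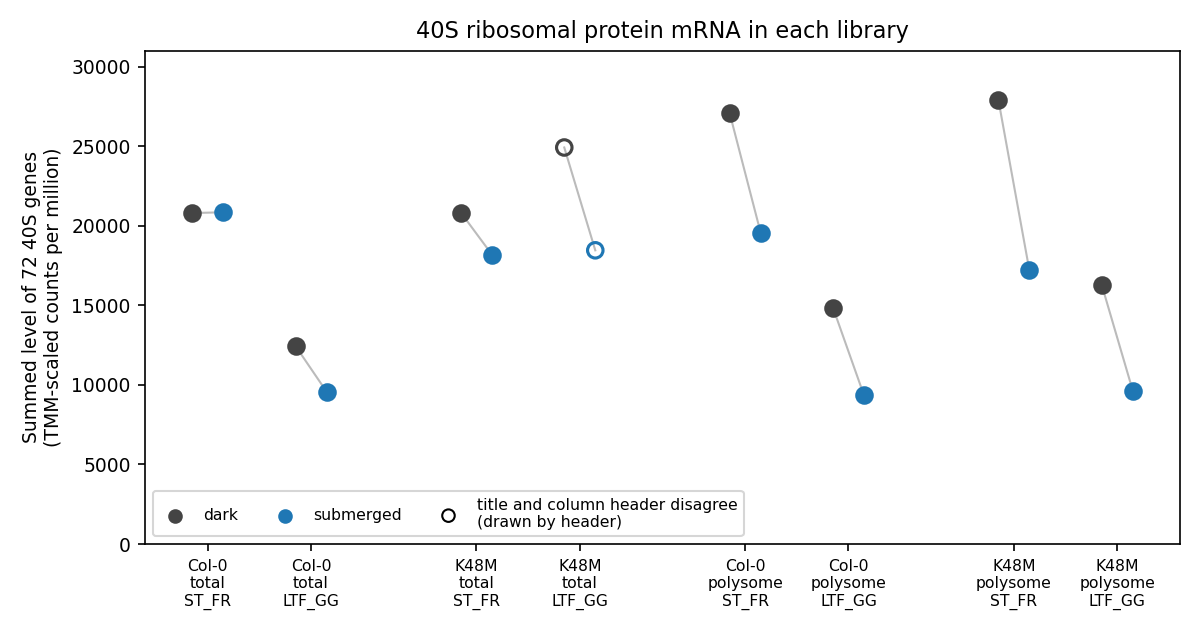
Summed level of the 72 40S genes in each of the 16 libraries, in TMM-scaled CPM on an axis from 0, by genotype, RNA fraction and library set. Lines join dark (black) and submerged (blue) libraries of one set, and open circles are the pair whose labels disagree. In all 4 polysome pairs the submerged library is the lower one, and the ST_FR libraries stand higher than the LTF_GG ones apart from the open pair.

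The library sets stood apart in their 40S level. The sum ran from 17204 to 27922 CPM in the 8 ST_FR libraries and from 9342 to 16288 CPM in the 6 LTF_GG libraries used in the tests, with no overlap. The conflicting pair carries the LTF_GG name yet stood at the ST_FR level. All tests therefore compared dark and submerged within a set through a term for the set (a replicate block), and without that term edgeR called no member in any submergence response. In bulk RNA, fewer cells of a type and less RNA per cell cannot be told apart. A shift shared by most mRNAs of a fraction is also removed by the scaling, so each value is relative to the other mRNAs of that library.

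Most 40S genes had lower polysome levels, and none was called higher. In Col-0 polysome RNA 18 of the 93 tested members fell and none rose (edgeR quasi-likelihood, Benjamini-Hochberg-adjusted p under 0.05), where 4.37% of all 19436 genes tested fell. Of the 65 40S genes 17 fell (the other call was an organelle gene), 64 had a negative value and the median log2 fold change was −0.61, beside −0.02 over all genes. In K48M polysome RNA 39 members fell and none rose, against 6.04% of all genes. The 39 were 33 40S genes, 4 organelle genes and 2 domain genes, and all 65 40S genes had a negative value with a median of −0.74, beside −0.01 over all genes. All 17 40S genes that fell in Col-0 were among the 33 that fell in K48M, which is 100% of the first list and 51.5% of the second. These calls lean on single libraries: leaving out one library of the compared groups left between 1 and 7 calls in Col-0 and between 1 and 9 in K48M, the fewest without either submerged Col-0 library or without the ST_FR submerged K48M library. With the conflicting pair added by its headers, 1 and 2 members were called, with 40S medians of −0.60 and −0.73.

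**Figure D2:**
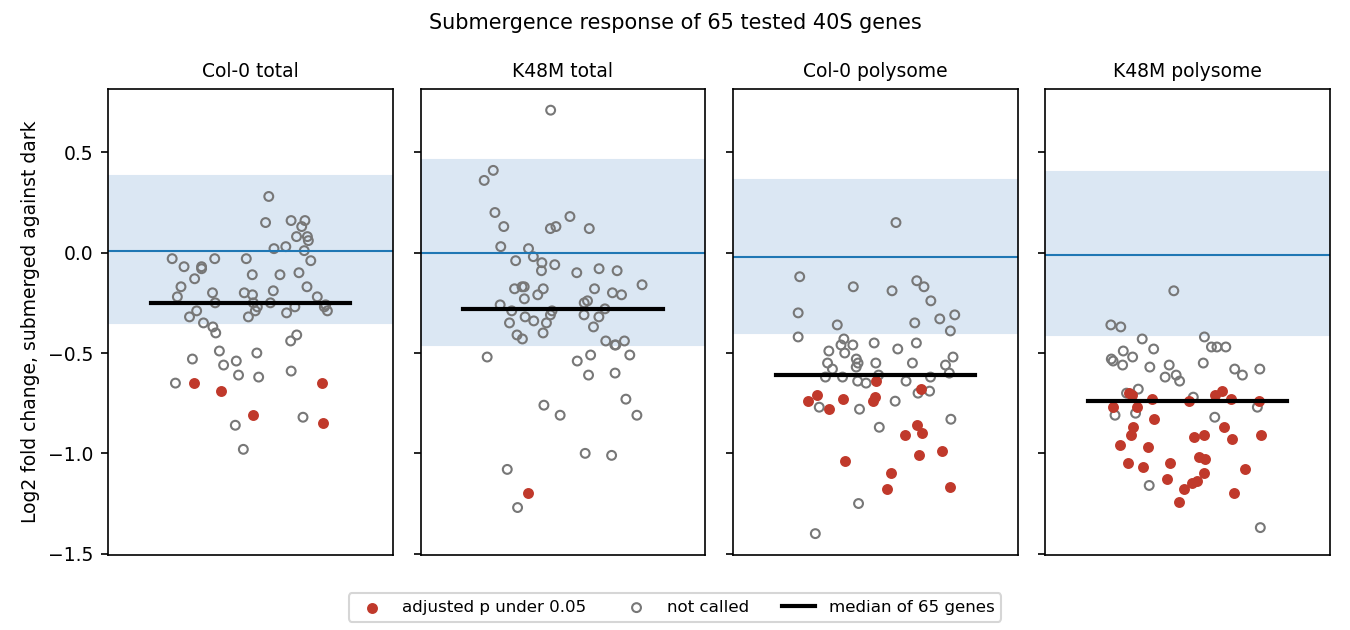
Log2 fold change of submerged against dark for the 65 tested 40S genes in each genotype and RNA fraction, from the edgeR fit of 14 libraries. Filled red points passed an adjusted p under 0.05, black bars are the medians of the 65 genes (−0.25, −0.28, −0.61 and −0.74 from left to right), and the blue line and band give the median and the interquartile range of all genes tested. In K48M polysome RNA all points lie below 0, and the K48M total panel rests on 1 library per condition.

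Direction within each library set tells the same without a model. Of the 65 40S genes 57 were lower under submergence in both sets in Col-0 polysome RNA, where 33.1% of all genes tested were. In K48M polysome RNA 65 of 65 were lower in both sets, against 35.9% of all genes, and in Col-0 total RNA 39, against 33.6%. The median log2 ratio of the 40S genes was −0.53 in ST_FR and −0.69 in LTF_GG for Col-0 polysome RNA, and −0.69 and −0.75 for K48M polysome RNA. In Col-0 total RNA it was −0.10 and −0.41, so that the ST_FR set showed little of the decline seen in LTF_GG. The 1 ST_FR pair of K48M total RNA gave −0.26. In the conflicting pair all 65 genes were lower in the library with a submerged header, by a median of 0.44, and the reading by the titles turns that sign.

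The ST_FR Col-0 dark polysome library, rich in ribosomal RNA, bears on how the Col-0 polysome decline is scaled. As a plain share of gene reads the 40S sum in that pair was 1.19 times higher under submergence, as a share without ribosomal RNA it was 0.75 times the dark share, and after TMM scaling 0.72 times. The LTF_GG pair gave 0.62, 0.63 and 0.63 for the same 3 shares. In a fit on plain library totals the median of all genes itself moved to 0.28 in Col-0 polysome RNA, with the 40S median at −0.27 and 0 calls. On totals without ribosomal RNA the 40S median was −0.58, beside 0.01 over all genes, with 14 40S genes called. K48M polysome RNA had 40S medians of −0.66 and −0.63 under these scalings, with 5 and 20 40S genes called, and all 65 genes were negative in both.

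RPS6A (AT4G31700) encodes the S6 protein, whose phosphorylation by S6 kinase is a readout of TOR activity. It stood at 1302 CPM in the dark and 776 submerged in ST_FR Col-0 polysome RNA, and at 547 and 337 CPM in LTF_GG. In K48M polysome RNA it stood at 1283 and 680 CPM in ST_FR and at 552 and 386 in LTF_GG. The submerged library was lower in all 4 polysome pairs, and the groups overlap only because the sets differ. RPS6A fell by 0.73 on the log2 scale in both genotypes (standard error 0.22 in each, adjusted p = 0.046 in Col-0 and 0.04 in K48M, edgeR). The second S6 gene, AT5G10360 (EMB3010), moved less: 409.6 to 367 and 300.2 to 243 CPM in Col-0 polysome RNA, and 401 to 339.7 and 325 to 240.3 CPM in K48M. It was not called, at −0.24 ± 0.24 (adjusted p = 0.6) and −0.36 ± 0.24 (0.37). Whether the 2 S6 genes respond differently was not tested.

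RPS18A and RPS13A, both named for leaf phenotypes, fell in both polysome responses. RPS18A (AT1G22780, PFL1), whose mutant has pointed first leaves, went from 700.0 to 328 CPM and from 219 to 122 CPM in Col-0 polysome RNA, and from 668 to 306 and from 262 to 128 CPM in K48M. It fell by 0.99 ± 0.26 (standard error here and below, adjusted p = 0.027) in Col-0 and by 1.1 ± 0.26 (0.014) in K48M. In total RNA it did not go down, at 254 and 304 CPM in ST_FR and 174 and 178 in LTF_GG for Col-0 (0.13 ± 0.26, adjusted p = 0.81). RPS13A (AT4G00100), to which the tables give the name PFL2, went from 645 to 312 and from 377 to 167 CPM in K48M polysome RNA and from 702 to 448 and from 326 to 184 CPM in Col-0. It fell by 1.13 ± 0.21 (0.0033) in K48M and by 0.74 ± 0.21 (0.04) in Col-0. The second S13 gene, AT3G60770, was called in K48M only (−0.71 ± 0.20, 0.028, and −0.45 ± 0.20, 0.17, in Col-0), and the difference was not tested for the pair.

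The naming rule also lists the S28, S21e and S24e genes. In K48M polysome RNA the S28 and S21e genes were called and the S24e genes were not. RPS28 (AT5G64140) was called in K48M polysome RNA (−0.70 ± 0.21, adjusted p = 0.041) and not in Col-0 (−0.48 ± 0.21, 0.17). Both S21e genes fell in K48M, AT3G53890 by 0.91 ± 0.23 (0.019) and AT5G27700 by 1.03 ± 0.27 (0.022). AT3G53890 stood at 898 and 486 CPM in the ST_FR Col-0 pair and at 273 and 174 CPM in LTF_GG, and fell by 0.78 ± 0.23 (0.045) there. The S24e genes AT3G04920 and AT5G28060 were not called, at −0.62 ± 0.24 (0.11) and −0.68 ± 0.21 (0.052) in K48M.

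The member with the lowest p in K48M polysome RNA was AT3G45030, 1 of 3 genes for S20, a protein of the head of the small subunit. It held 385 CPM in the dark and 180.3 submerged in ST_FR Col-0 polysome RNA and 148 and 75.8 CPM in LTF_GG. In K48M polysome RNA it held 394 and 178 CPM in ST_FR and 202 and 81.4 CPM in LTF_GG. Every submerged polysome library lay far below its dark partner, and within each set the conditions did not overlap. It fell by 1.04 ± 0.21 in Col-0 (adjusted p = 0.0055) and by 1.24 ± 0.21 in K48M (0.0014). Its total RNA went from 178 to 153 and from 106 to 74.3 CPM in Col-0 (−0.37 ± 0.20, adjusted p = 0.29).

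Other genes with low p values came from many families. AT2G40510 and AT2G40590, both S26e, fell by 1.18 ± 0.23 (adjusted p = 0.0041) and by 1.05 ± 0.22 (0.007) in K48M polysome RNA, and by 1.01 ± 0.23 (0.012) and by 0.86 ± 0.22 (0.024) in Col-0. S26 sits at the exit channel of the messenger RNA in yeast ribosomes. The second S18 gene, AT1G34030, fell by 1.05 ± 0.21 (0.0043) in K48M and by 0.90 ± 0.21 (0.012) in Col-0. The S7e gene AT5G16130 and the S15A gene AT5G59850 fell in both, by 0.91 ± 0.24 (0.028) and by 0.72 ± 0.20 (0.032) in Col-0 and by 1.08 ± 0.24 (0.01) and by 0.91 ± 0.20 (0.0076) in K48M.

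**Figure D3:**
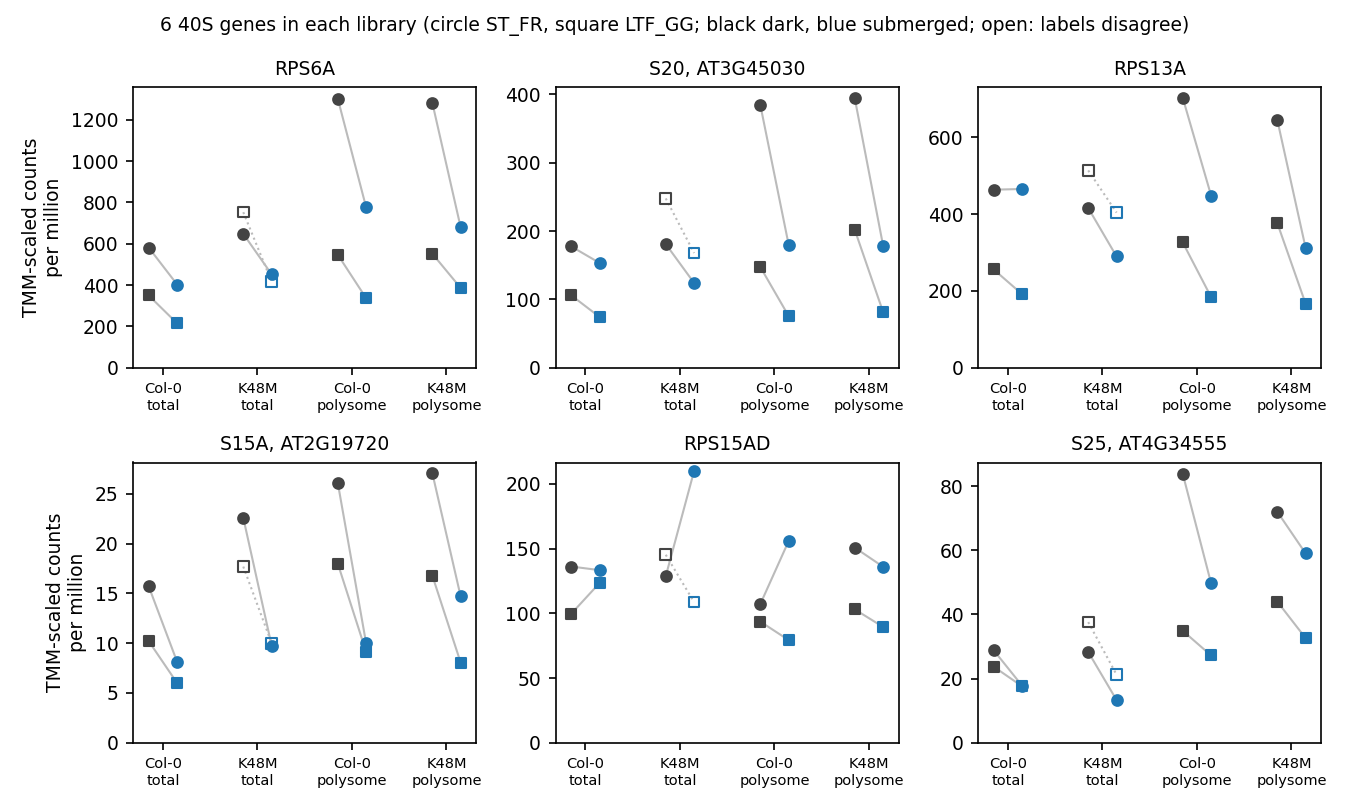
Level of 6 40S genes in each of the 16 libraries, in TMM-scaled CPM on axes from 0. Circles are ST_FR and squares LTF_GG libraries, black is dark and blue is submerged, lines join the pair of one set, and open symbols with a dotted line are the pair whose labels disagree. RPS6A, AT3G45030, RPS13A and AT2G19720 decline in all 4 polysome pairs, while RPS15AD rises from 107 to 156 in the ST_FR Col-0 polysome pair.

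In total RNA few members were called. In Col-0 5 of 93 fell and none rose, against 4.59% of all genes falling, and all 5 were 40S genes: AT1G58380 (XW6), AT1G58983, AT1G59359 and AT3G57490 of family S2 and AT2G19720 of S15A. Of these AT1G58983 and AT1G59359 share nearly all their reads with each other and with AT1G58684, so they are not separate measurements. The 40S median was −0.25, beside 0.01 over all genes. AT3G57490, a low S2 copy, went from 47.5 to 28.9 and from 23.8 to 12.4 CPM (−0.81 ± 0.23, adjusted p = 0.035). AT2G19720 went from 15.7 to 8.13 and from 10.2 to 6.0 CPM (−0.85 ± 0.24, 0.035). In K48M total RNA 1 member fell, AT2G19720 (22.6 to 9.76 CPM in ST_FR, −1.20 ± 0.32, 0.046), against 1.84% of all genes, and the 40S median was −0.28. This call compares 1 library with 1 library, with the spread taken from the other groups. With the conflicting pair the K48M total median was −0.39 by header and 0.19 by title. A share of 5 in 93 lies near the background, so the total RNA calls carry no result about the members as a group. The Col-0 calls ended without either dark library.

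Family sums moved alike. In each of 23 of the 26 families the summed polysome level was lower under submergence in all 4 pairs. The exceptions were S27a at 0.20, S23 at 0.11 and S8e at 0.03, each in the ST_FR Col-0 pair and on the log2 scale. The median family ratio was −0.40 in that pair, −0.69 in LTF_GG Col-0, −0.68 in ST_FR K48M and −0.74 in LTF_GG K48M. S18 was low throughout, at −1.04, −0.83, −1.13 and −0.98 in the same order, and S6 spanned −0.49 to −0.72. In total RNA 14 of 26 families were lower in the ST_FR Col-0 pair and 26 of 26 in the LTF_GG one.

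**Figure D4:**
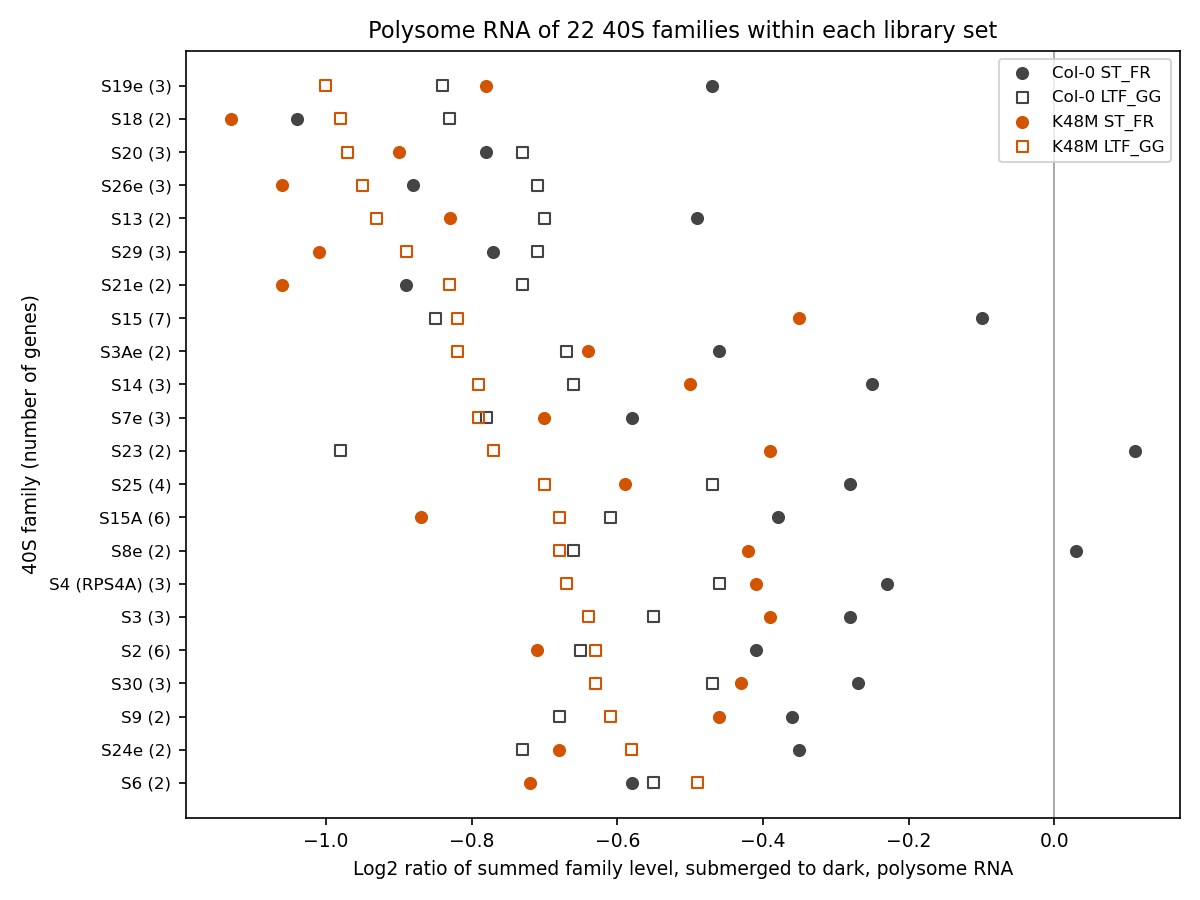
Log2 ratio of submerged to dark polysome level, summed over the genes of each of the 22 40S families with 2 or more genes, for the 4 pairs of one genotype and one library set. Families are ordered by the LTF_GG K48M ratio and the number of genes is given in brackets. Only 2 points, S23 and S8e in ST_FR Col-0, lie above 0.

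Within families the copies were unequal in point estimate. Of 22 families with 2 or more tested genes, the widest gaps in K48M polysome RNA were in S8e, S15A, S7e, S2 and S29. In S8e the low copy AT5G59240, at 0.96 to 4.96 CPM over the libraries, stood at −1.37 ± 0.44 (adjusted p = 0.055) and the abundant AT5G20290 at −0.56 ± 0.22 (0.12). In S15A, AT2G19720 fell by 0.97 ± 0.24 (0.016), while RPS15AD (AT3G46040) stood at −0.19 ± 0.22 (0.63), the highest of all 65 genes. RPS15AD went from 107 to 156 and from 93.6 to 79.3 CPM in Col-0 polysome RNA, so its library sets disagreed in direction. In S7e, AT5G16130 fell by 1.08 ± 0.24 and AT1G48830 stood at −0.43 ± 0.39. In S2, AT3G57490 stood at −1.14 ± 0.24 and AT1G58983 at −0.53 ± 0.19. In S29, AT4G33865 stood at −1.15 ± 0.30 and AT3G43980 at −0.54 ± 0.26. Differences between copies were not tested. The S2 copies AT1G58684, AT1G58983 and AT1G59359 share nearly all their reads, so their values are one measurement split between them and are uncertain.

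**Figure D5:**
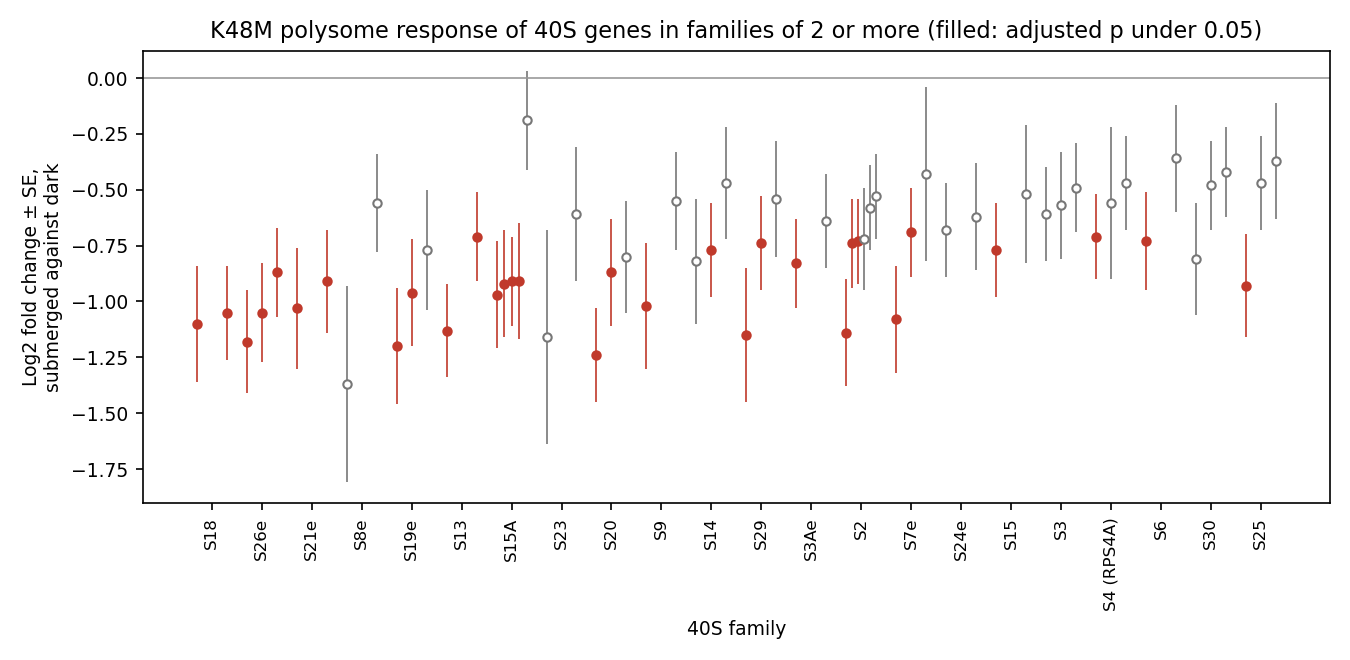
Log2 fold change with its standard error in K48M polysome RNA for the 61 tested 40S genes of the 22 families with 2 or more, grouped by family and ordered by the family median. Filled red points passed an adjusted p under 0.05. All values are below 0, with RPS15AD of S15A the closest to it and AT5G59240 of S8e the lowest at −1.37.

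Abundance made little difference to the response. The 40S genes were split into groups of 22, 22 and 21 by mean CPM per kilobase over the 14 libraries and had medians of −0.64, −0.55 and −0.62 in Col-0 polysome RNA and of −0.77, −0.70 and −0.74 in K48M, from the lowest group to the highest. Per kilobase the most abundant members were AT5G18380, a gene for S16 by the reference, at 1364 CPM per kilobase, and AT5G15200 (S9), AT5G20290 (S8e), AT4G33865 (S29), AT4G39200 (S25) and AT5G27700 (S21e), from 943 down to 688. Of these AT4G39200 barely moved in Col-0 polysome RNA (−0.12 ± 0.21, adjusted p = 0.79), at 498 and 548 CPM in ST_FR and 339 and 263 in LTF_GG. The lowest 4 were AT5G59240 and the organelle genes AT2G07734, AT5G63300 and AT2G07696, at 1.03 to 2.80 CPM per kilobase. Short transcripts as a class were also lower on polysomes. All 4377 genes of at most 1000 bases had a median of −0.20 in Col-0 and −0.17 in K48M polysome RNA, where the 50 40S genes of that length stood at −0.63 and −0.81.

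No member was called different between the genotypes. The difference of the polysome responses, K48M minus Col-0, had a 40S median of −0.16, with 57 of 65 genes below 0. The median was −0.05 with 41 below 0 without the ST_FR submerged Col-0 library, −0.10 without the LTF_GG dark K48M library, −0.27 without the LTF_GG submerged Col-0 library and −0.39 on plain library totals, beside −0.22 over all genes. The comparison called none of the members (0% of all genes, and 0 of 93 members at an unadjusted p under 0.05, edgeR; DESeq2 also called 0). The difference of the total responses had a 40S median of −0.04 and no call either (0% of all genes, 0 members at an unadjusted p under 0.05). Its sign is not settled. The median was −0.16 with the conflicting pair by header and 0.08 without the ST_FR submerged Col-0 library, beside 0.04 over all genes. On plain library totals it was 0.15, beside 0.17 over all genes. By title the median was 0.41, a reading in which all 10 hypoxia genes of the pair would be lower under submergence. In the dark the 40S genes were higher in K48M than in Col-0 polysome RNA by a median of 0.13, and under submergence they stood at −0.03, with no member called in either (0.00515% of all genes in each, which is 1 gene). At an unadjusted p under 0.05 there were 1 member in the dark and 0 submerged, beside 334 and 444 of all 19436 genes, and DESeq2 called 0. The member was AT3G46210, a domain gene named after its value was seen (0.55 ± 0.24). On plain library totals the dark median was 0.40, beside 0.26 over all genes. These p-values do not show that the genotypes act alike.

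In Col-0 the heavy polysomes held relatively more 40S mRNA than total RNA in the dark, and no such shift of the median was seen under submergence. In Col-0 in the dark the 40S median of polysome against total was 0.38 on the log2 scale, beside −0.01 over all genes, and 4 members rose, against 1.54% of all genes. On plain library totals this median was −0.07, beside −0.42 over all genes, on totals without ribosomal RNA 0.20, beside −0.19, and on single-model reads 0.24. The 4 members that rose were AT3G47370 (S20), AT3G02560 (S7e), RPS6A and GHS1 (AT3G27160), a plastid ribosomal protein. AT3G47370 stood at 593 CPM in polysome and 203 in total RNA in ST_FR and at 207 and 134 CPM in LTF_GG (1.08 ± 0.24, adjusted p = 0.039). Under submergence the Col-0 median was 0.01 and 1 member, RPS15A (AT1G07770), was lower on polysomes (−1.02 ± 0.24, 0.042), against 1.28% of all genes. The dark calls ended without either total library or without the ST_FR polysome library, and without the LTF_GG total library the submerged comparison called 17 members in both directions.

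In K48M in the dark the 40S median was 0.66 and 15 members rose, against 2.8% of all genes, 14 of them 40S genes. The S2 copies AT1G58684, AT1G58983 and AT1G59359 are among them and share nearly all their reads, so they are not separate measurements. The total arm was 1 library, so the spread in this test came from the other groups. On single-model reads the median was 0.35. The largest was AT3G47370 at 2.07 ± 0.33 (adjusted p = 0.013). Under submergence the median was 0.11, 3 members rose (AT4G34555, AT3G47370 and AT2G19750, against 1.23% of all genes) and 2 fell (among them AT5G28060, against 1.57%). These K48M values rest on the 1 ST_FR total library of each condition. With the LTF_GG pair added by its headers the dark median was −0.02 with 1 call, lower on polysomes, and the submerged median −0.40 with 3, so the direction in K48M depends on that pair. In K48M no member was called without either polysome library of the condition. Without the replicate block no member was called in any of the 4 comparisons, and the K48M submerged 40S median was −0.29.

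The choice of reads bears on these comparisons too. Of the 65 tested 40S genes 50 have 1 transcript model in the tables and 15 have 2 or 3. For the 15, the share of reads that fit a single model was 33.1% to 37.0% in the total libraries and 25.2% to 30.4% in ST_FR polysome libraries, with 32.3% to 34.6% in LTF_GG polysome libraries. In 13 of the 15 every ST_FR polysome library was below every total library. For RPS6A it was 10% to 16.3% in total libraries, 1.1% to 3.2% in ST_FR polysome and 7.0% to 11.1% in LTF_GG polysome libraries. Counted on single-model reads, polysome against total in the Col-0 dark turned to −0.86 for RPS6A, −0.93 for AT3G02560 and −0.12 for AT3G47370. In the reference annotation the bases found only in the first model number 295 of 1170 for AT4G31700, 202 of them on its 5′ side. They number 91 of 917 for AT3G02560, all on the 5′ side. For AT3G47370 they number 123 of 753, with 68 on the 5′ side and 55 on the 3′ side. The deposited counts list lengths of 1000, 911 and 689 bases for these genes in the same order. The reference models are thus not exactly those that defined the single-model reads. Bases particular to the other models were not counted. What part differences between models play was not tested. The submergence responses on polysomes stayed negative on single-model reads, with 40S medians of −0.61 in Col-0 and −0.70 in K48M over 62 genes.

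The change of polysome loading sets the polysome response against the total response of the same genotype. Its 40S median was −0.28 in Col-0 and −0.43 in K48M, with 61 of 65 genes below 0 in each, beside −0.02 and 0.01 over all genes. The K48M value rests on 1 total library per condition, and with the conflicting pair it was −0.31 by header and −0.91 by title. No member was called (0% of all genes in each). At an unadjusted p under 0.05 there were 8 members in Col-0, beside 290 of all 19436 genes, and DESeq2 called 0. On plain library totals the Col-0 median turned to 0.11, beside 0.34 over all genes, and the K48M median was −0.45, beside −0.03. A lower polysome share beyond the total RNA change was thus not detectable gene by gene with these libraries.

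The S16 genes and some organelle genes were also lower on polysomes. The 3 genes for S16 by the reference, described in the tables only by an S5 domain, had K48M polysome values of −0.97 ± 0.27 (AT5G18380, adjusted p = 0.027), −0.92 ± 0.21 (AT2G09990, 0.0098) and −0.90 ± 0.34 (AT3G04230, 0.1). In Col-0 polysome RNA none of the 6 tested domain genes, which include these 3, was called (smallest adjusted p = 0.16, edgeR). Their values there ran from −0.63 to 0.13, and the difference between genotypes was not called. The 19 organelle genes had medians of −0.38 in Col-0 and −0.44 in K48M polysome RNA. AT5G56940 fell in both, by 0.97 ± 0.22 (0.013) and by 1.0 ± 0.22 (0.0087). GHS1, AT1G74970 and AT2G33800 fell in K48M only by test, by 0.98 ± 0.28 (0.032), by 0.90 ± 0.21 (0.012) and by 0.74 ± 0.19 (0.022), with the difference between genotypes not called. RPS19 (AT5G47320), of the mitochondrial ribosome, stood at −0.04 ± 0.20 in K48M. The large-subunit genes, 161 tested, had medians of −0.47 in Col-0 and −0.60 in K48M polysome RNA. Of them 27 and 55 fell, against 4.37% and 6.04% of all genes. In the same order 0 and 1 rose, against 1230 and 1473 of all 19436 genes. The ratio of the 40S sum to the large-subunit sum ran from 0.471 to 0.543 over the 16 libraries.

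Of 28 ribosome biogenesis genes 1 fell in Col-0 polysome RNA, where 4.37% of all genes fell, and 3 fell in K48M, where 6.04% did. None rose, the medians were −0.20 and −0.16, and counts this close to the background carry no result about the list. NUC-L1, the nucleolin that acts at ribosomal RNA genes, fell by 0.89 ± 0.20 (adjusted p = 0.011) and by 0.76 ± 0.20 (0.021). FIB2, a fibrillarin that methylates ribosomal RNA, fell in K48M polysome RNA by 0.86 ± 0.25 (0.039) and in Col-0 total RNA by 0.90 ± 0.25 (0.032). The 12 genes of the TOR and S6 kinase axis had medians of 0.14 in Col-0 and 0.23 in K48M polysome RNA, with 8 and 11 above 0. None fell in either polysome response and 1 rose in K48M, where 1473 of all 19436 genes tested rose. A count this close to the background carries no result about this list either. The gene that rose was S6K2, a kinase of S6 protein, at 1.65 ± 0.31 (0.0031). It also rose in Col-0 total RNA by 0.93 ± 0.27 (0.04).

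Markers of dividing cells moved in the same direction as the 40S genes. All 9 were lower in both polysome responses, where 10016 (Col-0) and 9836 (K48M) of all 19436 genes tested were. Their medians were −0.46 in Col-0 and −0.68 in K48M. In K48M 2 fell, against 6.04% of all genes, among them PCNA1, the replication clamp (−1.43 ± 0.29, adjusted p = 0.0051). The summed level of the 9 was 148 to 237 CPM in the dark and 117 to 157 CPM submerged over the polysome libraries. It was lower under submergence in all 4 pairs. All 5 root markers were also below 0 in both responses, at medians of −0.35 and −0.36, and the 5 green tissue markers stood at −0.13 and −0.47. What part they play in the 40S values was not tested.

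The authors' deposited table of 8391 models, which they selected, holds 49 models of 47 40S genes, each with a fold of submergence against dark for 4 genotypes. The base of its log scale is not given in the sources used here. Across 7283 genes the slope between it and the log2 fold changes of the K48M polysome fit was 0.85 or 1.09, depending on which was fitted on the other. The authors' deposited tables write 4SA15 and 4SA-15, taken here as the line that the labels call 4A-15. In the authors' deposited table all 49 models had polysome folds below 0 in Col-0, K48M, i4g1-2 and 4SA15. That is the common direction there, since 56.9%, 85.1%, 72.5% and 74.2% of all 8391 models were below 0, in the same order. The 49 models had medians of −0.77, −2.04, −1.26 and −1.41 in the authors' deposited table. The medians of all models of the authors' deposited table were −0.29, −1.51, −0.94 and −1.01, so the 40S models lay 0.48, 0.53, 0.32 and 0.40 below them. In total RNA the medians of the 49 models in the authors' deposited table were −0.22, −0.34, −0.08 and −0.03, beside −0.13, −0.10, −0.08 and −0.06. The authors' deposited table puts 45 of the 49 in its cluster 6, which holds 3161 of its models, and 4 in cluster 7. No error or test can be given for these folds.

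A second deposited table gives a translational status for 537 models, without a stated formula. It holds 9 members, 7 of them 40S genes, and each had a lower status under submergence than in the control in all 4 genotypes. That is the common direction there, since 93.3% to 96.1% of all 537 models were lower. AT3G53890 (S21e) went from −0.98 to −4.05 in Col-0, from −1.89 to −3.58 in K48M, from −0.97 to −3.17 in 4SA-15 and from −1.34 to −3.42 in i4g1-2 in the authors' deposited table.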

How the data were processed

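For 16 libraries the authors deposited counts of reads for each transcript model (all reads, and reads fitting only that model) beside model lengths; per the file headers the pairs were trimmed. The submitters' processing notes name TAIR10, while no source used here gives the aligner or strandedness. Fold changes on a log scale, taken here as log2, and a translational status score come from a workbook the authors deposited; the formula of the score is not stated. Its other sheets were not used here. Counts of 41660 models were summed to 33592 genes, leaving out 11 rows without an identifier (at most 0.0084% of a library's reads). Single-model reads were 54.4% to 73.0% of gene reads, a share that also depends on how many models a gene has. Of the 50 tested 40S genes with 1 model, 47 had over 99% such reads and 3 under 1%. Genes with close copies or antisense partners are uncertain.

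Genes were tested with edgeR 4.0.16 (R 4.3.3; glmQLFit, glmQLFTest) on the total counts of 14 libraries with TMM scaling (factors 0.561 to 1.311), filterByExpr (minimum count 10, minimum total 15), a term per group and one for the library set, 5 residual degrees of freedom and Benjamini-Hochberg adjustment over 19436 genes. The biological coefficient of variation was 18.8%. Standard errors are the absolute log2 fold change over the root of F. The pairing by set comes from the data: deviations from group means correlated between same-set libraries in all 15 pairs of groups (r 0.34 to 0.76 across 12401 genes), and the labels say only that repeats are independent. Within-set ratios used a pseudocount of 0.5 CPM. Alternatives were DESeq2 1.42.0 and those in the closing section. P-values measure only the spread between these libraries. The model was tested on simulated data.

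Named genes were the S6 genes and genes with developmental names, the 12 lowest p and 4 highest responses in each polysome response, the 6 highest and 4 lowest levels per kilobase, the extremes of the 5 families with the widest gaps, and the 4 lowest p of each other comparison. For length, some genes the rule names are given in counts only, and 2 are not reported here. Members, gene lists and rules were chosen with earlier results of these data known. Promoter sequences are RefSeq's (TAIR10.1), and all 107 members matched that annotation by locus.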

Additional observations from a re-analysis of the deposited data

How the results depend on the processing

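Alternatives changed how many members were called more often than they changed direction. The 40S medians of both polysome responses stayed below 0 under every alternative, and the medians over all tested members ran from −0.61 to −0.22 in Col-0 and from −0.75 to −0.59 in K48M. For submergence the counts were 5 (Col-0) and 1 (K48M) in total RNA and 18 (Col-0) and 39 (K48M) in polysome RNA, and 4, 1, 15 and 5 for polysome against total in Col-0 dark, Col-0 submerged, K48M dark and K48M submerged. Without the replicate block all 8 counts were 0. With submergence ordered as Col-0 total, K48M total and then polysome, the 16 libraries by column header gave 0, 1, 1, 2, 0, 0, 1 and 3, those by sample title gave 0 in all but K48M submerged polysome against total (1), and DESeq2 gave 0 for K48M total and 16, 8 and 28 for the first 3 polysome-against-total comparisons. Library totals with no TMM factor gave 0, 0, 0, 6, 0, 0, 1 and 1, and totals free of ribosomal RNA gave 0 for K48M total, 25 for K48M polysome, 1 for Col-0 dark and 9 for K48M dark; both scalings were chosen after seeing the data. No filter gave 2 for Col-0 total and 4 for Col-0 submerged, and single-model reads gave 2, 0, 1 and 5 for Col-0 total, K48M total, Col-0 dark and Col-0 submerged. Leaving out single libraries gave 0 to 7 (Col-0 total), 1 to 7, 1 to 9, 0 to 5 (Col-0 dark), 0 to 17 (Col-0 submerged) and 0 in both K48M comparisons of polysome against total. The other 6 comparisons had no member called in any setting.

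Signs turned for these single values, and the cause was not tested. On single-model reads, polysome against total was −0.93 and −1.21 (AT3G02560, Col-0 and K48M dark), −0.12 (AT3G47370, Col-0 dark), −0.86 and −0.88 (AT4G31700, Col-0 dark and submerged). With no TMM factor, Col-0 polysome values were 0.15 (AT3G43980), 0.20 (AT4G39200) and 0.06 (AT5G10360), and K48M polysome values 0.03 (AT3G03600) and 0.05 (AT5G47320), these 2 at 0.07 each without ribosomal RNA. Left-out libraries gave Col-0 polysome values of −0.17 to 0.45 (AT1G64880), −0.15 to 0.44 (AT3G46040), −0.24 to 0.54 (AT3G49080) and −0.28 to 0.06 (AT4G39200), K48M polysome values of −1.20 to 2.49 (AT2G07734), −0.22 to 0.17 (AT3G03600) and −0.25 to 0.77 (AT5G63300), and −3.17 to 0.47 for AT2G07734 in K48M against Col-0 in the dark. The 16 libraries gave a difference of total responses of −0.01 (AT3G46040) and −0.05 (AT5G28060) by header, and 0.02 for AT5G16130 in K48M total RNA by title. Genes under a few CPM, such as AT2G07734, are limited by depth. The organelle genes AT2G07734 and AT2G07696 have 1 model each, and 31.4% and 75.9% of their reads over the 16 libraries fit that model alone. Their other reads are shared with other genes, which also makes their values uncertain.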
